A study of Mus musculus with 12 samples.

Results

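Every contraction of a muscle fibre ends with calcium leaving the cytosol. The sarco/endoplasmic reticulum calcium ATPases (SERCA pumps) return it to the sarcoplasmic reticulum, and in fast fibres parvalbumin, a soluble EF-hand protein, binds calcium until the pumps have removed it. Very small membrane proteins (micropeptides) sit beside the pumps in the membrane. Sarcolipin, phospholamban and myoregulin are known as inhibitors, whereas DWORF, the product of *Strit1*, is known to displace them and to raise pump activity. Sorcin and S100A1 are EF-hand proteins that bind the calcium release channel and have been tied to SERCA regulation as well.

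The 7 genes described here were chosen by name as calcium buffers or SERCA regulators: *Pvalb*, *Sln*, *Pln*, *Mrln*, *Strit1*, *Sri* (sorcin) and *S100a1*. All 7 were found by Ensembl gene ID among the 55450 genes of the count table, and all 7 had enough counts to be tested together with 19276 genes in total. The samples were tibialis anterior (TA) muscles, a fast hindlimb muscle, of wild-type (WT) mice on the 129Pas background with no treatment or altered allele. Mice were taken before birth, at the embryonic age E18.5, and at 2 or 7 weeks (wks) of age, with 4 mice per age and 12 libraries in all. The sex of the mice and their litters are not given in the labels. Different mice were used at each age, so no animal was followed over time.

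The libraries held 63018968 to 123449246 counts on genes. Levels below are CPM, read counts brought to a common library size, with libraries scaled by the TMM method, which assumes that most genes do not differ. This choice matters here, because a few muscle genes took a growing part of the counts after birth. Relative to scaling by the total count, TMM moved the median log2 change of all genes up by 0.93 in the interval before 2 wks and by 0.35 in the interval after it, and every change below carries that shift. The labelled tissue was checked with 6 skeletal muscle markers, whose summed level was 12634 to 21859 CPM before birth, 112049 to 136655 CPM in the mice of 2 wks and 118404 to 149711 CPM in those of 7 wks. The 5 heart markers summed to between 4.79 and 24.7 CPM in every library. Markers of other tissue differed between ages too. From E18.5 to 2 wks 5 of 6 adipocyte markers were lower (median log2 fold change -4.32), where 34.2% of all genes tested were lower (median -0.09). Their summed level was 230, 178, 1926 and 2693 CPM in E18.5 replicates 1 to 4. At 2 wks it was 421 to 486 CPM, below E18.5 replicates 3 and 4 but above replicates 1 and 2. *Fabp4* made up most of this sum at 2 wks, with a mean of 442 CPM. Also lower were 5 of 6 cartilage and bone markers (-1.88, with 1 higher) and 4 of 6 fibroblast markers (-0.94). Scaled by the total count, 6 adipocyte, 5 cartilage and bone and 5 fibroblast markers were lower, beside 61.9% of all genes. The part of these cell types in the changes below was not tested. In whole muscle, fewer cells of a type and less RNA per cell cannot be told apart.

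The micropeptides are encoded by very short reading frames, and these are shown because they define the 4 genes and make up at most 30.1% of their transcripts. They were read from the canonical transcripts of GENCODE vM39, with the start and stop codons in capitals.
Sln: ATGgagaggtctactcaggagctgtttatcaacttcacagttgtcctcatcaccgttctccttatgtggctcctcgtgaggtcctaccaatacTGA
Pln: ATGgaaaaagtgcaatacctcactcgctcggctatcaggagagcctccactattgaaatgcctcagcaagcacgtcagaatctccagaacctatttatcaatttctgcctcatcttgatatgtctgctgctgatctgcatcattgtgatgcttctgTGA
Mrln: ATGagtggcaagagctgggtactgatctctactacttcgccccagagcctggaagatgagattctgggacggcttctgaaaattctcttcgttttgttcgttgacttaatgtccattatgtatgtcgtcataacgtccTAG
Strit1: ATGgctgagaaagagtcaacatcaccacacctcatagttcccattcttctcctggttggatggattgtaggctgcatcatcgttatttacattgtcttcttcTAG
Without the stop codon, the frames hold 31 codons in *Sln*, 52 in *Pln*, 46 in *Mrln* and 34 in *Strit1*. They make up 7.28% of the *Sln* transcript of 1318 bases and 3.87% of the *Pln* transcript of 4105 bases. In *Mrln* and *Strit1*, with transcripts of 477 and 349 bases, the shares are 29.6% and 30.1%. Levels are compared between genes only per kilobase of transcript. The frames of the EF-hand genes are longer, with 110 codons in *Pvalb*, 198 in *Sri* and 94 in *S100a1*.

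On GRCm38.p6 (mm10), the genes lie at chr15:78191112-78206400 (*Pvalb*, minus strand), chr9:53850251-53853849 (*Sln*, plus strand) and chr10:53337686-53345999 (*Pln*, plus strand). *Mrln* lies at chr10:70204664-70219711 on the plus strand, *Strit1* at chr3:63481095-63483906 on the minus strand, *Sri* at chr5:8046078-8069314 on the plus strand and *S100a1* at chr3:90511034-90514330 on the minus strand. Some of them share exon bases with a gene on the opposite strand: 2688 bases of *Pln* with the non-coding *Gm47644*, 6137 of *Sri* with *Adam22* and 2563 of *S100a1* with *S100a13*. Smaller overlaps were 141 bases of *Pln* with *Cep85l*, 19 of *S100a1* with *Gm56783* and 85 of the 352 exon bases of *Strit1* with *Gm37279*. The libraries were made with a stranded kit, but the strand setting of the counting is not stated, so reads in those bases may not be assigned to 1 gene with certainty.

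From E18.5 to 2 wks, 6 of the 7 genes passed the test (edgeR quasi-likelihood, adjusted p below 0.05), 4 of them higher and 2 lower, where 65.7% of all genes tested passed (31.5% upward and 34.2% downward). From 2 to 7 wks, 4 of 7 passed, 1 higher and 3 lower, against 27.5% of all genes (13.5% upward, 13.9% downward). Between E18.5 and 7 wks all 7 passed, 4 higher and 3 lower, against 71.4% of all genes (34.3% upward, 37.1% downward). With so many genes changing, the count of genes that passed says little, and the sizes and directions of the changes are given gene by gene.

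*Pvalb*, the gene of the cytosolic calcium buffer parvalbumin, had the largest rise of the 7. At E18.5 its level was 75.2, 89.6, 32.6 and 82.8 CPM in replicates 1 to 4, and at 2 wks it was 16532, 16288, 13493 and 8110 CPM. At 7 wks it was 11352, 10738, 14259 and 10421 CPM. Every mouse after birth was far above every mouse before birth, in 16 of 16 pairs of mice, while the ranges of 2 and 7 wks overlapped. The log2 fold change to 2 wks was 7.60 ± 0.41 (SE), a 194-fold rise (edgeR, adjusted p = 1.2e-08). The change from 2 to 7 wks was -0.22 ± 0.31 and did not pass the test (edgeR, adjusted p = 0.633). The difference between these 2 changes was itself 7.82 ± 0.53 (edgeR, adjusted p = 5.43e-07), so that nearly all of the rise lay before 2 wks.

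The promoter of *Pvalb* is shown because this gene had the largest rise. The sequence covers 250 bases before and 50 after the RefSeq start site on GRCm38.p6, at chr15:78206351-78206650 on the minus strand, and capitals mark 2 motifs.
Pvalb promoter: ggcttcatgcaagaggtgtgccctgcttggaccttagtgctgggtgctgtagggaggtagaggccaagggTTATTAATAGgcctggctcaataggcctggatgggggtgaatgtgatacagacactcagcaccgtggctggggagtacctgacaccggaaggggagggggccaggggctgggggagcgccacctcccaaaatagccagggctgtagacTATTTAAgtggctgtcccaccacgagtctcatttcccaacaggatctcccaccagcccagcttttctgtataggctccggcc
The first run in capitals matches the binding motif of the MEF2 factors, which are known regulators of muscle genes, and starts 180 bases before the start site. The second run is a TATTTAA, a variant of the TATA box, that begins 32 bases before the start site. Among 32851 mouse promoters of the same length, searched on both strands, 3.19% held the MEF2 motif and 4.51% held TATTTAA. The E-box CAGCTG, bound by myogenic factors, occurred in 16.3% of all promoters but not in this window. RefSeq lists another start site of *Pvalb* further into the gene, at which neither the MEF2 motif nor TATTTAA was found. The only other TATTTAA among the promoters found for the 7 genes was in *Strit1*, 3 bases before its start. No promoter of this length was found for *Sln*, which was therefore not searched. A matching run of letters is a description of the sequence and was not tested for binding.

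*Sln* moved the opposite way. Sarcolipin RNA stood at 490, 582, 438 and 509 CPM at E18.5, then at 13.7, 11.2, 4.40 and 3.50 CPM at 2 wks, and finally at 1.99, 3.08, 3.77 and 3.17 CPM at 7 wks. The E18.5 mice lay close together, and all 16 pairs of mice showed a lower level at 2 wks. Its log2 fold change to 2 wks was -5.95 ± 0.44 (SE), a 61.6-fold lower level (edgeR, adjusted p = 1.66e-07). *Sln* fell again from 2 to 7 wks, with a log2 fold change of -1.45 ± 0.37 (edgeR, adjusted p = 0.0108), although 1 of the 16 pairs of mice went the other way. Over the whole time the level became 168-fold lower. The fall before 2 wks exceeded the later one by 4.50 ± 0.69 on the log2 scale, given here without its sign (edgeR, adjusted p = 0.000393), and by 5.17 without 2 wks replicate 1. With its sign, this difference ranged from -5.17 to -3.99 with each library left out.

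**Figure D1:**
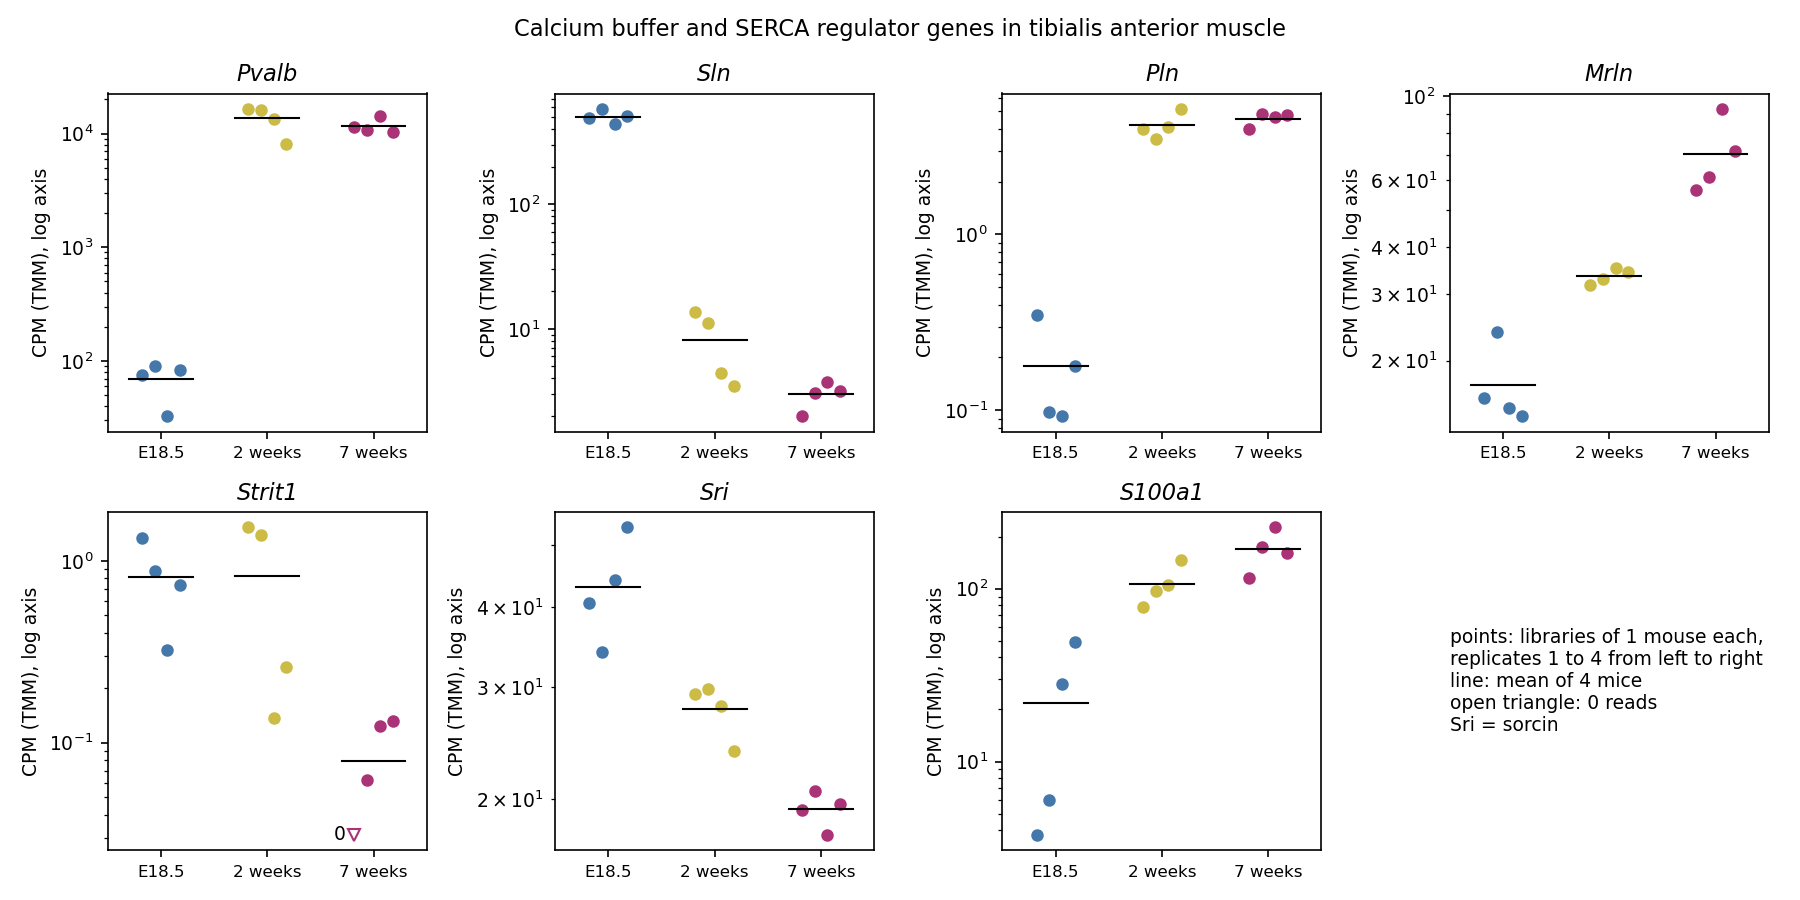
Level of each of the 7 genes in each library, as TMM-scaled CPM on a log axis, with a separate axis range for each gene; points are mice (replicates 1 to 4 from left to right), lines are means of 4 mice, and the open triangle marks a library with 0 reads. *Pvalb* and *Pln* sit far higher after birth, *Sln* far lower, and *Strit1* and *Sln* at 2 wks are higher in replicates 1 and 2 than in replicates 3 and 4.

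The level of *Sln* at 2 wks was uneven, with replicates 1 and 2 above replicates 3 and 4. The coefficient of variation (CV) over these 4 mice was 61.3%, against 4.01% from counting alone. *Strit1* was also higher in replicates 1 and 2, as was the summed level of 6 red blood cell markers, at 476, 755, 146 and 148 CPM in replicates 1 to 4. The 6 smooth muscle markers summed to 1005, 776, 473 and 571 CPM in the same libraries. The 6 nerve and Schwann cell markers summed to 493, 177, 157 and 96.0 CPM, and the part of other cell types in these values was not tested.

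*Pln*, the gene of phospholamban, the main SERCA inhibitor of heart and slow muscle, was nearly silent before birth. Its level was 0.347, 0.0985, 0.0927 and 0.180 CPM at E18.5, from 50, 17, 19 and 36 reads. It was 3.99, 3.48, 4.07 and 5.17 CPM at 2 wks and 3.99, 4.83, 4.64 and 4.77 CPM at 7 wks. The level at each age after birth lay within a narrow range that did not touch the E18.5 range. On the log2 scale the change to 2 wks was 4.56 ± 0.37 (SE), or 23.5-fold (edgeR, adjusted p = 4.19e-07). From 2 to 7 wks the change was 0.13 ± 0.31 (edgeR, adjusted p = 0.799), and its sign turned with scaling to the total count (-0.21) and with a GC correction (-0.13). The difference of the 2 changes was 4.43 ± 0.54 (edgeR, adjusted p = 7.2e-05).

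Even after this rise *Pln* remained a rare RNA. Per kilobase its mean level was 1.02 ± 0.17 CPM (SD, n = 4) at 2 wks, the lowest of the 7 genes. Smooth muscle also expresses *Pln*, and the summed level of its 6 markers was 276 to 551 CPM at E18.5, 473 to 1005 CPM at 2 wks and 294 to 395 CPM at 7 wks. *Acta2* makes up much of this sum, and the markers did not move together. From E18.5 to 7 wks 3 of them rose, *Myh11* (1.19 on the log2 scale), *Tagln* (0.86) and *Smtn* (0.74), where 34.3% of all genes rose. The other 3 fell, among them *Acta2* (-1.29), where 37.1% of all genes fell. With total counts 0 were higher and 4 lower, beside 2291 higher and 13297 lower among all 19276 genes tested. *Pln* was 25.7-fold above its E18.5 level at 7 wks, and the part of smooth muscle in this rise was not tested.

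*Mrln*, the gene of myoregulin, the SERCA inhibitor of skeletal muscle, rose in both intervals. Its level was 15.98, 23.9, 15.0 and 14.3 CPM at E18.5 and 31.7, 32.9, 35.3 and 34.4 CPM at 2 wks. At 7 wks it was 56.7, 61.1, 92.7 and 71.7 CPM. The 3 ages did not overlap. *Mrln* rose by 0.96 ± 0.19 (SE) on the log2 scale to 2 wks (edgeR, adjusted p = 0.00052), but 0.03 with scaling to the total count and -0.02 once the trend over transcript length was removed, and neither of these passed. The rise from 2 to 7 wks was 1.07 ± 0.19 (edgeR, adjusted p = 0.00128) and kept its direction under both of those settings. The changes of the 2 intervals differed by -0.11 ± 0.32, which did not pass (edgeR, adjusted p = 0.805).

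*Strit1*, the gene of DWORF, the activator among the micropeptides, was rare at all ages. Its level was 1.33, 0.881, 0.322 and 0.738 CPM at E18.5 and 1.53, 1.39, 0.137 and 0.261 CPM at 2 wks. At 7 wks it was 0, 0.0621, 0.123 and 0.132 CPM, from 0, 4, 8 and 8 reads. The library with no reads allows a level of up to 0.0602 CPM, the level of 3 reads, by counting error alone. The range at 2 wks enclosed the E18.5 values at both ends, and all 16 pairs of mice had a lower level at 7 wks than at 2 wks.

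The log2 fold change of *Strit1* to 2 wks was 0.02 ± 0.67 (SE), did not pass the test (edgeR, adjusted p = 0.979) and was -0.82 with scaling to the total count. From 2 to 7 wks *Strit1* fell by 3.32 ± 0.84 on the log2 scale (edgeR, adjusted p = 0.0106), and from E18.5 to 7 wks it fell by 3.30 ± 0.83 (edgeR, adjusted p = 0.00279). *Strit1* thus fell in the second interval, in which *Pvalb* and *Pln* did not pass. The contrast of the 2 intervals was 3.34 ± 1.24 (edgeR, adjusted p = 0.0463), but it no longer passed with total counts (2.90, adjusted p = 0.0729), with the length trend removed (2.17, adjusted p = 0.167) or without any 1 of 9 libraries. These were 2 wks replicates 1 (2.497, adjusted p = 0.172) and 2 (2.58, adjusted p = 0.168), E18.5 replicates 2, 3 and 4, and all 4 libraries of 7 wks, the last 7 with adjusted p of 0.0523 to 0.0817. It was 4.06 without 2 wks replicate 3 and 3.95 without replicate 4.

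*Sri*, the gene of sorcin, fell in both intervals by small steps. Its level was 40.6, 34.0, 44.1 and 53.3 CPM at E18.5, 29.3, 29.8, 28.0 and 23.8 CPM at 2 wks, and 19.3, 20.6, 17.6 and 19.7 CPM at 7 wks. The 3 ages did not overlap. *Sri* had a log2 fold change of -0.63 ± 0.15 (SE) to 2 wks (edgeR, adjusted p = 0.00177), and -0.21 with adjusted p = 0.188 once the trend over GC content was removed. From 2 to 7 wks it was -0.52 ± 0.15 (edgeR, adjusted p = 0.0177), with adjusted p of 0.0512 and 0.0563 without 2 wks replicate 1 or 2. Over the whole time *Sri* became 2.23-fold lower (edgeR, adjusted p = 9.61e-06).

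*S100a1* encodes an EF-hand protein that is known to act on the calcium release channel. Its level was 3.77, 6.03, 28.2 and 49.0 CPM at E18.5, the widest spread of the 7 genes at that age, with a CV of 97.8% against 1.53% from counting alone. It was 78.4, 96.4, 105 and 146 CPM at 2 wks and 116, 173, 226 and 160 CPM at 7 wks. Every mouse after birth was above every E18.5 mouse. The log2 fold change to 2 wks was 2.29 ± 0.61 (SE; edgeR, adjusted p = 0.0045). It ranged from 1.94 to 3.07 with each library left out, and was 3.07 without E18.5 replicate 4. It was smaller with total counts (1.33, adjusted p = 0.0479), with the length trend removed (1.44, adjusted p = 0.0349) and with the GC trend removed (1.68, adjusted p = 0.0212). From 2 to 7 wks the change was 0.67 ± 0.58 and did not pass (edgeR, adjusted p = 0.42), while from E18.5 to 7 wks it was 2.96 ± 0.62 (edgeR, adjusted p = 0.00074). The latter ranged from 2.60 to 3.74 with each library left out, and was 3.74 without E18.5 replicate 4. The difference of the 2 intervals, 1.62 ± 0.98, did not pass (edgeR, adjusted p = 0.204), but it was 2.40 (adjusted p = 0.0392) without that library. With each library left out it ranged from 1.25 to 2.40.

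The E18.5 replicates 3 and 4 that were high in *S100a1* were also high in *S100a13* and *S100b*. The other S100 genes are not given by mouse, and reads in shared exon bases may belong to either *S100a1* or *S100a13*. *S100a13*, which overlaps *S100a1* on the opposite strand, was at 9.88, 11.3, 16.8 and 19.0 CPM in E18.5 replicates 1 to 4, and *S100b*, on another chromosome, was at 4.13, 5.42, 13.2 and 14.6 CPM. The 6 adipocyte markers had the same split, with sums of 230, 178, 1926 and 2693 CPM, and the 6 cartilage and bone markers went the other way, with sums of 62.5, 143, 27.5 and 25.1 CPM. The 6 nerve and Schwann cell markers, which include *S100b*, did not show this split, with sums of 72.2, 99.7, 66.4 and 68.7 CPM. Whether the mixture of tissue in these pieces plays a part in the spread of *S100a1* was not tested.

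**Figure D2:**
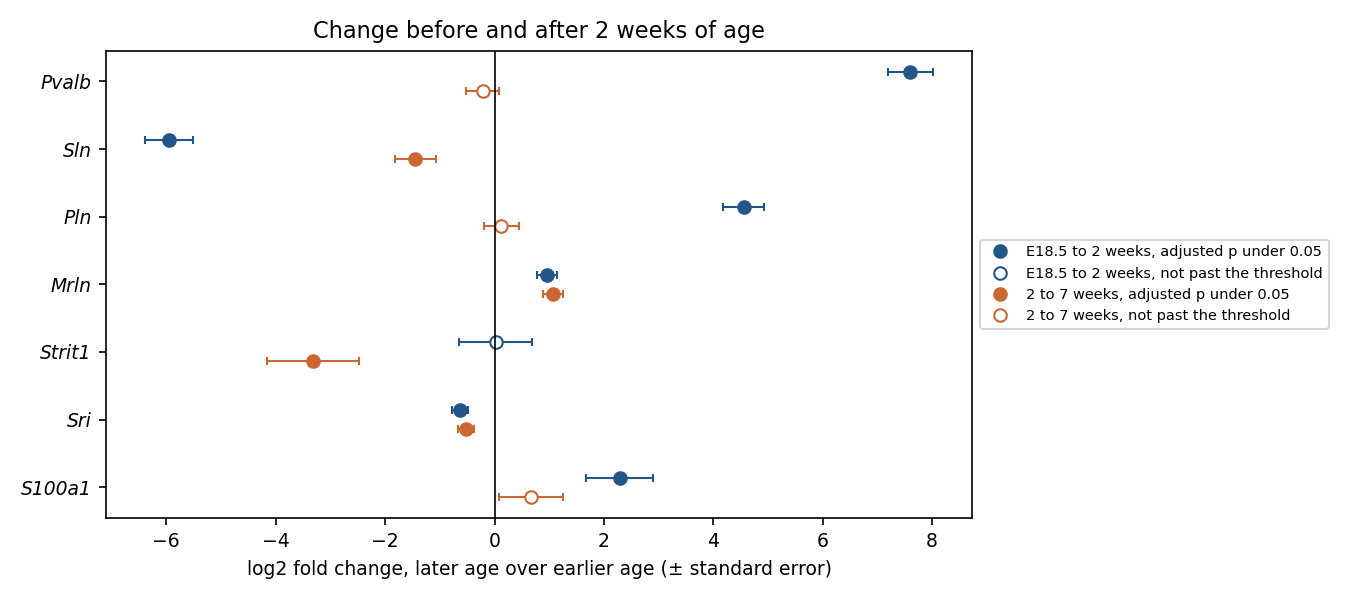
Log2 fold change of the 7 genes from E18.5 to 2 wks (blue) and from 2 to 7 wks (orange), on the TMM scale from the edgeR fit of 12 libraries; bars are standard errors and open circles did not pass an adjusted p of 0.05. *Pvalb* (7.60 and -0.22) and *Pln* (4.56 and 0.13) have their change before 2 wks. *Strit1* (0.02 and -3.32) has it after 2 wks, though the pass of its contrast of the 2 intervals is lost under several settings. *Sln*, *Mrln* and *Sri* pass in both intervals, but not under every setting.

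The 7 genes thus followed different courses, and the contrast of the 2 intervals passed for 4 of them, *Pvalb*, *Sln*, *Pln* and *Strit1*, against 38.4% of all genes tested. The pass of *Strit1* was lost under the settings given above, and the count was 3 or 4 under every alternative run. The first change lay above the later one in *Pvalb*, *Pln* and *Strit1*, as in 21.6% of all genes, and below it in *Sln*, as in 16.8% of all genes. For *Mrln*, *Sri* and *S100a1* it did not pass, which does not show that their changes before and after 2 wks were equal. With the length trend removed the contrast of *Mrln* was -1.14 and passed (edgeR, adjusted p = 0.00414).

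Scaling to the total count moved the sizes but kept the calls to 2 wks of the genes other than *Mrln*. On that scale the log2 fold change was 6.71 for *Pvalb*, -6.82 for *Sln*, 3.63 for *Pln* and -1.55 for *Sri*, so that the fall of *Sln* was then the larger of the first 2 in size. Between E18.5 and 7 wks *Pvalb* and *Sln* changed by 7.38 and -7.39 with TMM and by 6.12 and -8.67 with total counts.

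The order of the genes by level per kilobase also turned over. At E18.5, *Sln* came first with a mean of 383 ± 45.3 CPM per kb (SD, n = 4), apart from all others. It was followed by *Mrln* (36.2 ± 9.37), *S100a1* (26.3 ± 25.7), *Pvalb* (22.3 ± 8.16) and *Sri* (19.1 ± 3.58), whose neighbours in the order overlapped in range. *Strit1* (2.34 ± 1.19) and *Pln* (0.0437 ± 0.0288) were lower and separate.

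At 2 wks *Pvalb* led with 4330 ± 1246 CPM per kb, ahead of *S100a1* (129 ± 34.4), *Mrln* (70.4 ± 3.29) and *Sri* (12.3 ± 1.20), all without overlap. *Sln* (6.22 ± 3.81) came next, just under *Sri*, and overlapped *Strit1* (2.38 ± 2.10), which in turn overlapped *Pln* (1.02 ± 0.17). At 7 wks the order was *Pvalb* (3721 ± 558 CPM per kb), *S100a1* (204 ± 54.9), *Mrln* (148 ± 33.6), *Sri* (8.57 ± 0.56), *Sln* (2.28 ± 0.56), *Pln* (1.11 ± 0.09) and *Strit1* (0.227 ± 0.175), and only *S100a1* and *Mrln* overlapped. The lengths behind this order are those of the canonical transcripts, which were not measured in this muscle.

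The micropeptides and sorcin act on the pumps, so the pump genes set the scale against which their RNA can be read. *Atp2a1* encodes SERCA1, the pump of fast fibres. It rose from a mean of 1592 ± 516 CPM (SD, n = 4) at E18.5 to 31996 ± 2011 CPM at 2 wks and was 43247 ± 3007 CPM at 7 wks. The first step was 4.33 ± 0.27 (SE) on the log2 scale (edgeR, adjusted p = 4.8e-08), and the second, 0.43 ± 0.24, did not pass (edgeR, adjusted p = 0.195). *Atp2a2*, the gene of SERCA2 of slow muscle, heart and most other cells, fell from 354 ± 39.3 CPM to 99.5 ± 16.6 CPM and then to 69.8 ± 11.9 CPM. *Atp2a3*, the gene of SERCA3, which is known from blood and endothelial cells, was at 10.4, 37.8 and 18.8 CPM on average. Per kilobase, *Atp2a1* made up 81.6% ± 4.74 of the RNA of the 3 pump genes before birth, then 99.6% ± 0.10 at 2 wks and 99.8% ± 0.04 at 7 wks. *Atp2a2* made up 17.9%, 0.291% and 0.152% at the 3 ages.

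Each gene was then set against the summed pump RNA of its own library, per kilobase, a ratio that does not depend on how libraries are scaled. For every 100 units of pump RNA the median E18.5 muscle held 84.1 units of *Sln* (range 68.4 to 101), whereas the median muscle held 0.0731 units at 2 wks (0.0339 to 0.147) and 0.0236 at 7 wks (0.0139 to 0.0262). Per kilobase of canonical transcript, sarcolipin RNA was near parity with pump RNA before birth and far below it in every mouse later. The nearness to parity depends on the lengths used, 1318 bases for *Sln* and 4141 for *Atp2a1*. Without division by length, the mean level at E18.5 was 505 CPM for *Sln* and 1592 CPM for *Atp2a1*.

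The ratio of *Mrln* fell from 7.85 units per 100 pump units at E18.5 (6.51 to 9.12) to 0.920 at 2 wks (0.852 to 0.943) and then rose to 1.38 at 7 wks (1.099 to 1.78). *Mrln* RNA was thus lower relative to the pumps after birth, while its CPM was higher. *Sri* went from 4.93 to 0.159 and 0.0803 units, and *Strit1* from 0.426 to 0.0294 and 0.00256 units. *Pln* was at 0.00763, 0.0131 and 0.0106 units, with overlapping ranges at the 3 ages, although its CPM rose 23.5-fold. *S100a1* was at 4.93, 1.51 and 2.02 units, again with overlap.

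*Pvalb* was the only gene of the 7 whose ratio to the pumps was higher without overlap at 2 and 7 wks than at E18.5, with medians of 5.08, 58.7 and 34.9 units per 100 pump units. Its ranges at 2 wks (32.9 to 74.6) and 7 wks (30.9 to 41.5) overlapped. Exact two-sided permutation tests of the log2 ratio were run over 19 pairs of ages and genes, without adjustment. Of these exact tests, 12 gave p = 0.0286, the smallest that 4 mice against 4 allow. They were the 3 comparisons of *Sln*, of *Mrln* and of *Sri*, both comparisons of *Pvalb* with E18.5, and that of *Strit1* between E18.5 and 2 wks. For *Pln* the exact permutation p lay between 0.171 and 0.571, and for *S100a1* between 0.4 and 0.429. *Strit1* at 7 wks had no log ratio in the library with 0 reads and was not tested.

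**Figure D3:**
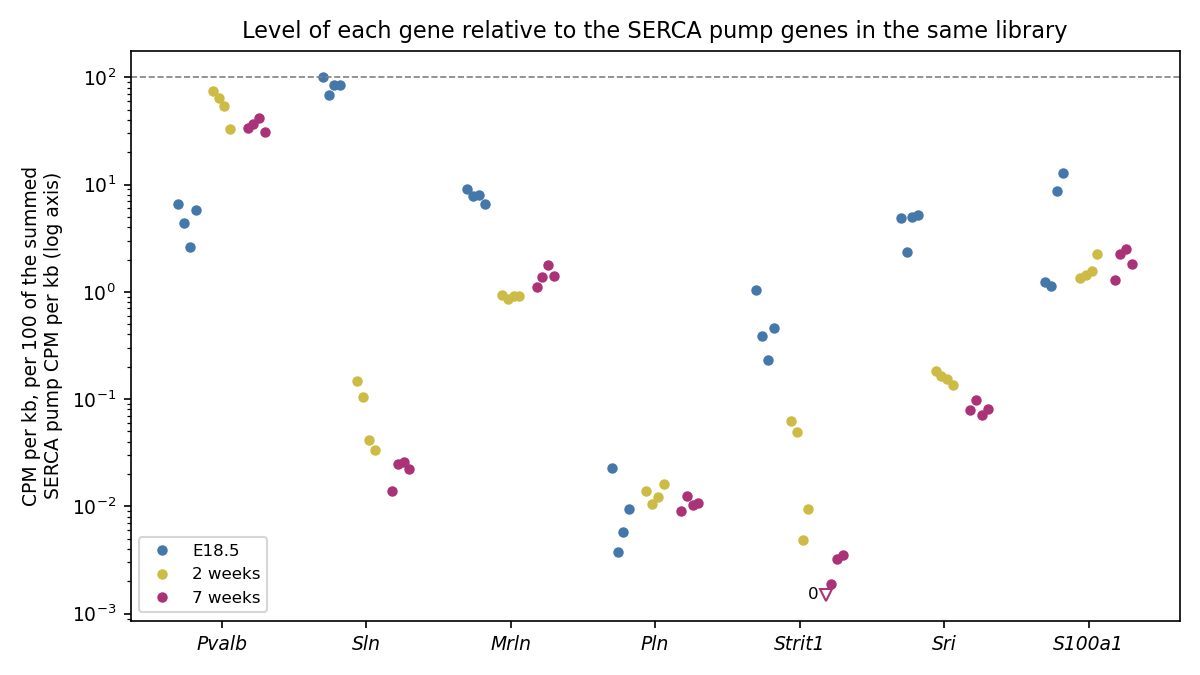
CPM per kb of each gene for every 100 units of summed CPM per kb of *Atp2a1*, *Atp2a2* and *Atp2a3* in the same library, on a log axis; each point is a mouse, the dashed line is parity with the pumps and the open triangle is a library with 0 *Strit1* reads. *Sln* drops from a median of 84.1 to 0.0236, *Pvalb* climbs from 5.08 to 34.9, and *Pln* stays within 0.00372 to 0.0230 at all ages.

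The 4 micropeptide genes together held 91.7 units per 100 pump units at E18.5 (median, range 76.6 to 111), 0.998 at 2 wks (0.979 to 1.17) and 1.42 at 7 wks (1.12 to 1.82). Within this pool *Sln* made up 90.9% ± 1.23 (SD, n = 4) before birth, then 7.66% ± 4.51 at 2 wks and 1.50% ± 0.22 at 7 wks. *Mrln* made up 8.52% ± 1.24, 88.2% ± 6.82 and 97.6% ± 0.34. The leading RNA of the pool therefore changed from that of sarcolipin to that of myoregulin in all mice.

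*Pln* and *Strit1* remained a small part of this pool, which leaves out the micropeptide genes *Arln* and *Erln* given below. *Pln* made up 0.0105% before birth, 1.28% ± 0.26 in mice of 2 wks and 0.754% ± 0.14 at 7 wks. Without division by length, its share at 2 and 7 wks would be 9.04% and 5.98%, since its transcript is the longest. The share of *Strit1* was 0.550% ± 0.28 at E18.5 and 0.139% ± 0.10 at 7 wks, and at 2 wks it was 5.32%, 4.84%, 0.499% and 0.976% in replicates 1 to 4. These are shares of RNA, and the amount of peptide was not measured.

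**Figure D4:**
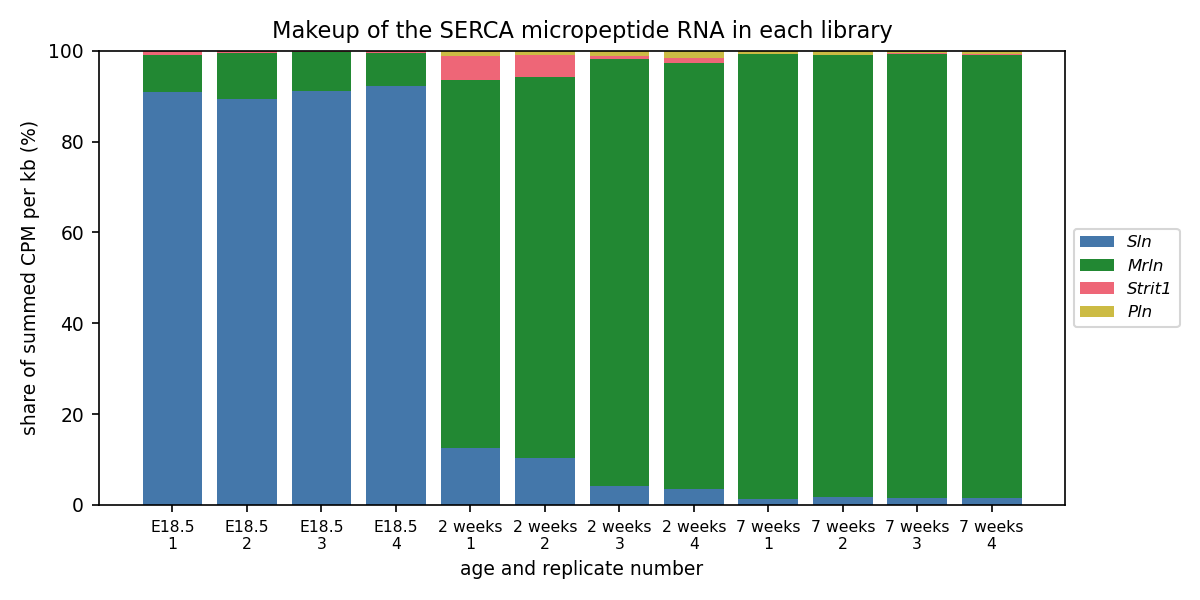
Share of *Sln*, *Mrln*, *Strit1* and *Pln* in their summed CPM per kb, with a bar for each of the 12 libraries. *Sln* fills 89.3% to 92.3% of the bar at E18.5 and *Mrln* fills 80.9% to 98.0% of it at 2 and 7 wks.

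A further pair of SERCA micropeptide genes, known from non-muscle cells, was measured for comparison. *Arln* (another-regulin) was at 14.8 ± 1.88 CPM at E18.5, 20.9 ± 2.88 CPM at 2 wks and 19.3 ± 2.76 CPM at 7 wks (SD, n = 4), a log2 fold change of 0.50 to 2 wks (edgeR, adjusted p = 0.0112) that turned to -0.44 with scaling to the total count. Per kilobase *Arln* was at 15.5 to 20.4 CPM at 2 wks and 13.7 to 19.4 CPM at 7 wks. This was above every value of *Sln* at those ages (at most 10.4 and 2.86) and below *Mrln* (at least 66.5 and 119). *Arln* is not in the pool above, whose shares would be lower with it. *Erln* (endoregulin) was at or below 0.522 CPM in every library and fell by 1.16 and then by 1.89 on the log2 scale (edgeR, adjusted p = 0.0315 and 0.0289). These falls rest on few reads, 14, 12, 7 and 9 at 2 wks and 1, 2, 5 and 1 at 7 wks.

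Of 15 genes of calcium release and storage, the route of calcium into the cytosol, 13 rose and 2 fell from E18.5 to 2 wks. Their median log2 fold change was 2.44 against -0.09 for all genes tested, of which 31.5% rose and 34.2% fell. Scaling to the total count left 12 higher and 2 lower, where 13.2% of all genes were then higher and 61.9% lower. Among the rises were those of *Jsrp1*, the gene of JP45 (4.55), and *Casq1*, the calcium-storing calsequestrin of fast fibres (3.30). The falls were those of *Ryr3*, a release channel of immature muscle (-4.84), and *Casq2*, the calsequestrin of slow and heart muscle (-3.28). From 2 to 7 wks 3 of the 15 rose and none fell, against 13.5% and 13.9% of all genes. Total counts gave 0 higher and 3 lower, beside 4.92% higher and 28.0% lower among all genes. *Ryr1*, the main release channel of muscle, was among those that rose on the TMM scale (0.72 ± 0.21, edgeR, adjusted p = 0.021).

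Relatives of parvalbumin went in both directions. Of 11 other cytosolic EF-hand genes, 4 rose and 3 fell to 2 wks, with a median of -0.13, where 31.5% of all genes rose and 34.2% fell. With total counts 3 were higher and 6 lower, against 13.2% and 61.9% of all genes. *Calb1* (calbindin, 3.23) and *Tnnc2* (troponin C of fast fibres, 3.05) rose, and *Ocm* (oncomodulin, a close relative of parvalbumin, -6.39) and *Tnnc1* (troponin C of slow and heart muscle, -2.81) fell. *Calb1* and *Ocm* were rare, with means of 0.0569 and 0.899 CPM at E18.5 and 0.540 and 0.00773 CPM at 2 wks. The mean of *Ocm* at 2 wks was below the level of 3 reads in each library of that age (0.0309 to 0.0503 CPM).

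Of 10 other S100 genes, the family of *S100a1*, 9 were tested. To 2 wks 2 rose and 6 fell, with a median of -1.07, against the same 31.5% and 34.2% of all genes. With total counts 0 were higher and 7 lower, against 13.2% and 61.9%. *S100a16* (1.17) and *S100a6* (1.16) rose on the TMM scale, and *S100a8* (-4.72) and *S100a9* (-4.70), which are known from neutrophils, fell. Of 7 other penta-EF-hand genes, the family of sorcin, 5 rose and 1 fell on the TMM scale, and total counts gave 2 higher and 2 lower, beside the shares of all genes just given. *Capn3*, the muscle calpain (1.73), and *Capn1* (1.51) rose, and *Pdcd6* (-0.46) fell.

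Phospholamban and sarcolipin are switched by phosphorylation, so kinases and phosphatases that act on them and their partners were listed too. Of these 14 genes, 8 rose and 2 fell to 2 wks on the TMM scale with a median of 0.47, beside 31.5% and 34.2% of all genes. Scaling to the total count gave 4 higher and 9 lower, beside 13.2% and 61.9% of all genes, so the share that was lower was near that of all genes. *Camk2g*, a calcium/calmodulin kinase (2.41), and *Ppp1r1a*, a phosphatase inhibitor (2.10), rose, and *Prkaca* (-1.22) and *Prkacb* (-0.33), catalytic subunits of protein kinase A, fell.

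Myosin heavy chains mark the fibre types. To 2 wks 3 of the 6 rose and 3 fell, beside 31.5% and 34.2% of all genes. With total counts 3 were higher and 3 lower, beside 13.2% and 61.9% of all genes. *Myh4* (10.17) and *Myh1* (7.81), the chains of the fastest fibres, had the largest rises, and the neonatal *Myh8* (-7.57) and embryonic *Myh3* (-7.12) the largest falls. *Myh7*, the slow chain, fell by 3.23 on the log2 scale (edgeR, adjusted p = 0.000274).

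The genes most alike in course to each of the 7 were sought among the 4089 more abundant genes (mean of 5 or more in log2 CPM), by Pearson's r of log2 CPM over the 12 libraries. These libraries fall into 3 ages, so that r mostly reflects the steps between ages, and it is given as a description. For *Pvalb* they were *Myl1* (r = 0.995), *Casq1* (0.995) and *Myh4* (0.994), all genes of the contractile or calcium storage apparatus of fast fibres. For *Sln* they were *Myh8* (0.988), *Pabpc1* (0.988) and *Eef1a1* (0.986), a neonatal myosin and a pair of genes of translation. For *Pln* they were *Rgs5* (0.993), which is known from pericytes, *Atp5pf* (0.988) and *Prr33* (0.984).

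For *Mrln* the most alike were *Hdgf* (r = 0.988), *Psmd7* (0.987) and *Cacfd1* (0.984), and for *S100a1* *Retsat* (0.993), *Coq8a* (0.992) and *Grpel1* (0.989), the last 2 known from mitochondria. *Sri* was closest to *Cers2* (0.977), *Fbh1* (0.973) and *Anxa5* (0.965). *Strit1* had the least close neighbours, *Rpl39* (0.910), the imprinted RNA *H19* (0.908) and *Itgb1bp2* (0.889).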

How the data were processed

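RNA of TA muscle pieces was extracted with TRI Reagent, and libraries were made with a stranded mRNA kit and read as pairs of 100 bases. The submitters' notes name bcl2fastq 2.17.1.14, cutadapt 1.10, STAR 2.5.3a, HTSeq 0.6.1p1 and mm10, whereas the study's methods name GRCm39. The authors deposited raw counts of reads per Ensembl gene, not normalized. The table holds 55450 genes, of which 51477 have a GENCODE vM39 identifier, and 0 value columns were without a sample.

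Counts were filtered with filterByExpr, scaled by TMM and fitted with edgeR 4.0.16 (quasi-likelihood, R 4.3.3, limma 3.58.1) over all 12 libraries, with age as the only term. P-values were Benjamini-Hochberg adjusted over 19276 genes, with a threshold of 0.05. The biological coefficient of variation was 0.279. The study compared transcripts with another tool, which cannot be run on counts per gene. Lengths are those of canonical GENCODE vM39 transcripts, chosen after the lengths were seen, and the union of exons is an added alternative. Promoters and coordinates come from RefSeq on GRCm38.p6 and motifs were chosen after the promoters were seen. The members, lists and tests were chosen with earlier results of these data known. From each list, the genes with the 2 largest rises and 2 largest falls to 2 wks are named. *Ryr1* and *Myh7* were added after their values were seen. The text also names, per member, the 3 genes most alike. Simulated counts were used to test the fits. Alternatives were scaling by total count or upper quartile, TMM without the 20 most abundant genes, DESeq2 1.42.0, other filters, a replicate block, GC and length corrections, glmTreat, pairwise fits and each library left out. Tables and figures used Python 3.11.15, pandas 2.3.3, numpy 2.4.6, scipy 1.17.1 and matplotlib 3.10.9.

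Replicates are separate mice, and no 2 libraries of an age were alike within counting error (chi-square per degree of freedom of at least 31.25). Intervals and floors cover counting error only.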

Additional observations from a re-analysis of the deposited data

Results flagged for a closer look

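Among 30 sets of 4 libraries examined for an isolated value, 1 was found, where chance gives about 1.5. The CPM of *Atp2a1* in 7 wks replicate 2 was 38769, and its gap to the nearest of the other mice was 0.863 of the range of the 4.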

How the results depend on the processing

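Counts per gene do not separate transcript forms, and *Strit1* at 7 wks (at most 8 reads per library), *Pln* at E18.5 and *Erln* after birth rest on few reads. With all libraries kept, 272 fold changes of the members held their direction and side of the threshold over the alternatives, 13 lost the call, 1 gained it (*Mrln*, contrast of intervals, -1.14, length trend removed) and 11 turned in sign. With a fold change beyond 2 required (edgeR's glmTreat), 0 of the 7 genes passed from 2 to 7 wks, 2 at an unadjusted p under 0.05, where the plain edgeR test and DESeq2 each gave 4. The sign of *Mrln* to 2 wks turned to -0.023 with the length trend removed. Changes that had not passed turned for *Pln* from 2 to 7 wks (-0.21, total counts, and -0.13, GC) and, in the contrast of intervals with the GC trend removed, for *Mrln* (0.17) and *Sri* (0.56). For *Strit1* to 2 wks the value was -0.82 with total counts, -0.11 with the upper quartile, -0.031 with no filter, -1.10 with the length trend removed and -0.055 with DESeq2. A minimum of 10 counts in every library removed *Strit1*, which then has no value.

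With each library left out, *Strit1* to 2 wks ranged from -0.40 to 0.38, the contrast of intervals from -0.20 to 0.087 for *Mrln* and from -0.20 to 0.032 for *Sri*, and the log2 ratio of *Pln* to the pumps at 7 wks against E18.5 from -0.024 to 0.85. Ratio tests with 3 mice in a group cannot pass 0.05, so only their direction was compared.

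The shares of the micropeptide pool moved most with the length used. Without division by length, and with the union of exons, *Sln* made up 96.5% and 95.6% at E18.5, 16.96% and 15.2% at 2 wks and 3.83% and 3.49% at 7 wks. *Mrln* made up 3.28% and 3.74%, 72.3% and 76.2%, and 90.1% and 94.8%. *Pln* made up 0.0348% at E18.5 without length, 9.04% and 2.07% at 2 wks and 5.98% and 1.36% at 7 wks. *Strit1* made up 0.155% at E18.5 without length, and 6.53% at 2 wks and 0.374% at 7 wks with the union. *Sln* led at E18.5 and *Mrln* later in all of these.

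For mice that carry the same replicate number at different ages, the deviations had correlations of -0.28 to 0.51 over 12 pairs of libraries (median 0.00019). Other pairs had -0.50 to 0.38. No pairing by number was seen, but so few pairs cannot show that there was none. With the replicate block, *Strit1* to 2 wks was -0.21 and its contrast of intervals 2.61 (adjusted p = 0.113). The block left 6, 4 and 7 of 7 members past the threshold for the pairs of ages and 3 for the contrast. The cause of these changes was not tested.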
